A study of Homo sapiens with 6 samples.

Results

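Pyruvate is carried into mitochondria, turned into acetyl-CoA by the pyruvate dehydrogenase complex and oxidised in the tricarboxylic acid (TCA) cycle, while pyruvate carboxylase feeds the cycle from the side by making oxaloacetate. Most dehydrogenases of the cycle pass electrons to NAD+ for respiration. Isocitrate dehydrogenases 1 and 2 and malic enzymes 1 and 3 use NADP+ instead and yield NADPH, which serves reductive synthesis and antioxidant systems. The genes described here are 37 genes of pyruvate entry, the TCA cycle and its exits, listed by name, out of 28563 genes measured, and each of the 37 was matched to a single row through its GENCODE symbol.

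The RNA came from human cells labelled HepG2, the name of an established liver cancer cell line, in 2 groups that differed in treatment alone. The PD group received 336 µM polydatin (PD), a plant glucoside of resveratrol, per the labels, and the control group received DMSO, the solvent of PD; RNA was taken after 24 h. There were 3 libraries in each group, each from its own dish of the 1 line, so the p-values below measure the spread between dishes. Expression was deposited as FPKM, fragment counts scaled for gene length and for library size. Worked back from the FPKM, the totals of the DMSO libraries ranged from 16763318 to 17274927 fragments and those of the PD libraries from 16308476 to 18071632.

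Genes were tested with limma on log2(FPKM + 1) if their mean reached 0.5 FPKM, and 14400 genes did, including all 37. A change was called at an adjusted p of at most 0.05 over all tested genes. Fold changes on this scale are smaller than the ratio of FPKM for genes of low FPKM. The members had means of 2.98 to 112 FPKM over the 6 libraries and from 89 to 11660 fragments in a library. Of 25 genes that mark hepatocytes, 13 were measured. The rest, ALB and AFP among them, are absent from the deposited FPKM, although FGA is present with 1 fragment in a single library. CPS1 fell from 222 to 228 FPKM in DMSO to 106 to 111 FPKM in PD (log2 fold change -1.04, limma, adjusted p = 1.6e-06). RBP4 rose from at most 0.479 FPKM in DMSO to at most 1.73 FPKM in PD (log2 fold change 0.71, limma, adjusted p = 0.0027), so both moved with the treatment, and their part in the results below was not tested. The other 11 of the 13 measured, among them APOA1, SERPINA1 and HNF4A, stayed at or below 0.172 FPKM in each library. The cells are therefore called HepG2 by their label only. For 8 measured markers of immune, endothelial and fibroblast cells, the summed level was 3.73 to 4.40 FPKM in DMSO and 3.69 to 4.09 FPKM in PD. Most of this sum was COL1A1, with means of 3.46 FPKM in DMSO and 3.45 FPKM in PD, so it says little about the other markers.

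PD moved many of these genes by a small amount and 1 of them by a large one. Of the 37 genes, 18 rose, 10 fell and 9 did not pass the test, so 75.7% were called. Over all tested genes, 31.9% rose and 26.2% fell, 58.1% in all, and the share was 67.6% among the 9397 tested genes with a mean at least as high as the lowest of the 37. The share called is therefore not far from that of other genes at these levels. The median log2 fold change was 0.13 for the members and 0.01 for all tested genes, and it fell to 0.048 for the members and -0.05 for all genes with upper quartile scaling. In 29 of the 37 genes the libraries of the groups did not overlap (PD higher in 18, lower in 11), which held for 65.4% of all tested genes. IDH2 was the only member that changed by at least 2-fold on the FPKM + 1 scale, where 2.04% of all tested genes rose and 1.57% fell by that much. MPC1 and PDK3 passed 2-fold as well with a pseudocount of 0.1 and with limma voom on fragments.

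**Figure D1:**
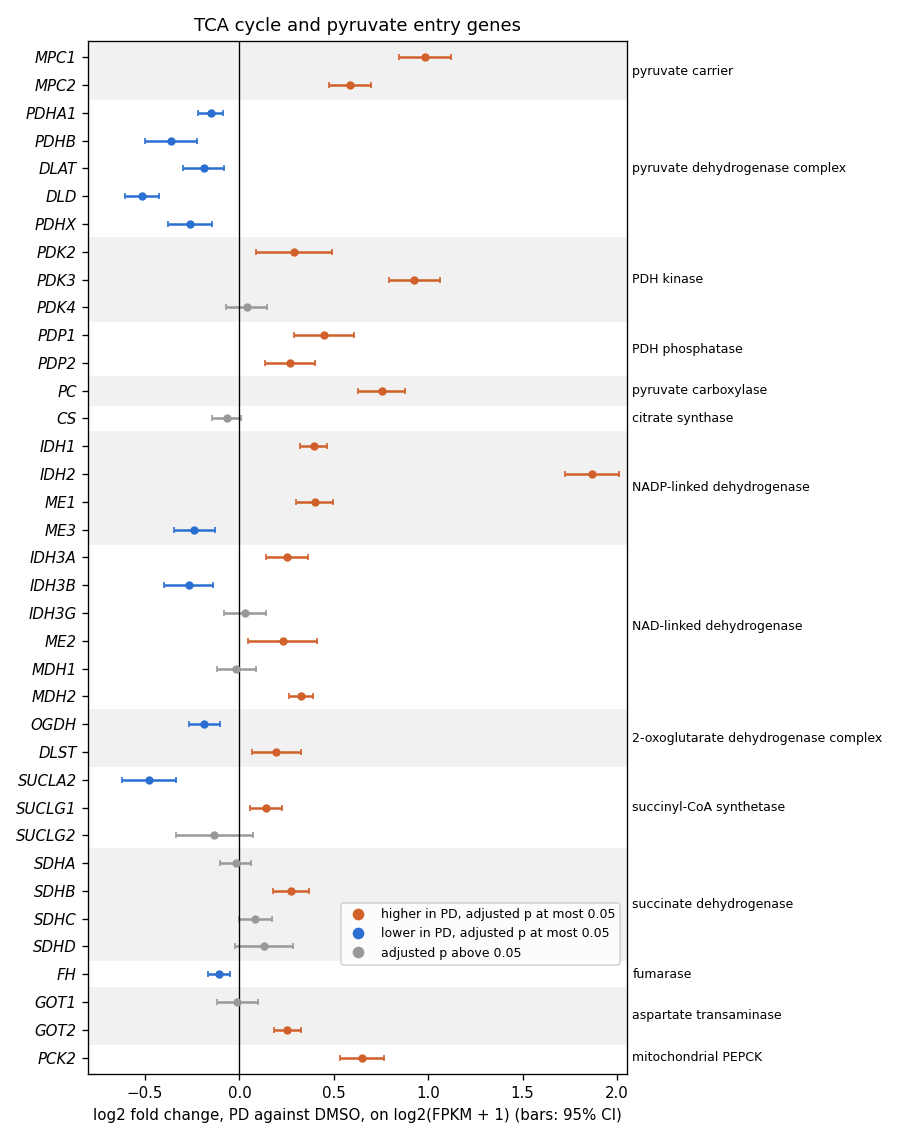
Log2 fold change of the 37 genes, PD against DMSO, on the log2(FPKM + 1) scale (x axis), in rows grouped by role; points are limma estimates from 3 libraries per group and bars are 95% confidence intervals. IDH2 stands at 1.87, MPC1 and PDK3 follow at 0.98 and 0.93, and all 5 subunits of the pyruvate dehydrogenase complex lie below 0.

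The upstream sequences of 3 genes are shown because their transcripts mark the extremes of what follows: IDH2 rose most, IDH3A is its NAD-linked counterpart with a small rise, and DLD fell most. They run from 250 to 51 bases before the start of the canonical GENCODE transcript in hg38, 200 bases each, and leave out the bases next to the start, where other transcripts have untranslated exons. Capitals mark the letters of a GC box (GGGCGG) or a CCAAT box (CCAAT) on either strand.
IDH2: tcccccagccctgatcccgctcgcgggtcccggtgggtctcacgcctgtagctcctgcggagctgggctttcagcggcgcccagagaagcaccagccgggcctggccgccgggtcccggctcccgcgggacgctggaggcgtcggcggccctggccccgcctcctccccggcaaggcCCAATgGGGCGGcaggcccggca
IDH3A: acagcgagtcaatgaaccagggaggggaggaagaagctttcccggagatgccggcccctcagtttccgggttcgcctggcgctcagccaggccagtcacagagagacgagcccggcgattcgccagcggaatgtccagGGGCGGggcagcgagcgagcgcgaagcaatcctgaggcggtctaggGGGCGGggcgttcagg
DLD: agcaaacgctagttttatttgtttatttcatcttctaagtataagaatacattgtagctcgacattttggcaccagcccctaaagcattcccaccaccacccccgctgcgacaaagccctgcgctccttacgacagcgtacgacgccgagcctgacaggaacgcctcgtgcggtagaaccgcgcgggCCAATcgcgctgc

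The IDH2 window lies at chr15:90102519-90102718 on the minus strand, that of IDH3A at chr15:78149112-78149311 on the plus strand and that of DLD at chr7:107890933-107891132 on the plus strand. The annotated IDH3A gene starts further upstream, at 78131498, so its window precedes the canonical transcript but lies within the gene. G and C made up 77.5% of the bases for IDH2, 67.0% for IDH3A and 54.0% for DLD, where the median of the members was 67.0% and that of 20033 protein-coding genes 62.0%. A CCAAT box was found in this window for 21 of the 37 members (56.8%) and for 30.1% of all protein-coding genes. The comparison, here and for the other elements, takes in genes not expressed in these cells. It was not matched for level, while all members are expressed. GC boxes were found for 20 members (54.1%), against 48.8% of all genes. The core of the antioxidant response element (TGACNNNGC) was present for IDH1, IDH3G, ME1 and MPC1 (10.8%), against 8.56% of all genes, and the E-box (CACGTG) for ME3, PDHB, PDK2, PDP1 and PDP2 (13.5%), against 5.68%. Genes with the antioxidant element rose or did not pass the test, and genes with the E-box rose or fell, as the values below show. No link between an element and a direction was tested in so few genes, and no match here is evidence of binding.

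At the point of pyruvate entry, both subunits of the mitochondrial pyruvate carrier rose and all 5 subunits of the pyruvate dehydrogenase complex fell. MPC1 had 12.4, 14.7 and 13.5 FPKM in the DMSO libraries and 27.9, 27.3 and 27.9 FPKM in the PD libraries. The PD libraries thus lay close together and far above the highest DMSO library. For MPC1 the log2 fold change was 0.98 ± 0.06 (SE; limma, adjusted p = 1.4e-05). RNA of a whole dish was measured, so a change per cell cannot be told apart from a change in the mix of cells. MPC2, its partner in the carrier, went from 9.10, 9.05 and 9.12 FPKM to 15.0, 14.0 and 13.4 FPKM, a log2 fold change of 0.59 ± 0.05 (SE; limma, adjusted p = 5.3e-05).

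Of the pyruvate dehydrogenase complex, the sharpest fall was that of DLD, the dihydrolipoamide dehydrogenase that this complex shares with the 2-oxoglutarate dehydrogenase complex. DLD had 43.9, 41.9 and 41.1 FPKM in DMSO and 30.1, 28.5 and 29.3 FPKM in PD, with no overlap between the groups. The mean of DLD fell from 42.3 ± 1.43 to 29.3 ± 0.831 FPKM (SD, n = 3 each), and on the log2 scale this was -0.51 ± 0.04 (SE; limma, adjusted p = 3.5e-05). PDHB, the beta subunit of the decarboxylating enzyme, fell from 9.13 ± 0.670 to 6.87 ± 0.131 FPKM (SD, n = 3 each). PDHX, which tethers DLD to the complex, fell from 16.0 ± 0.843 to 13.2 ± 0.473 FPKM. Smaller falls were measured for the other two subunits, with log2 fold changes of -0.19 for DLAT, the acetyltransferase core, and -0.15 for PDHA1, the alpha subunit that is phosphorylated when the complex is switched off. The adjusted p of these 4 subunits was 0.0013 to 0.010 (limma), the 3 PD libraries of each lay below all 3 DMSO libraries, and each fall kept its call under every alternative run. The order of levels within the complex, with PDHA1 highest at 68.5 ± 1.11 FPKM (SD, n = 3) and PDHB lowest at 9.13 FPKM in DMSO, was the same in PD.

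The complex is switched off by pyruvate dehydrogenase kinases and on by phosphatases, and genes of both kinds rose. PDK3 had 2.23, 1.97 and 2.06 FPKM in DMSO and 4.95, 4.89 and 4.76 FPKM in PD, and its FPKM mean was 2.33 times as high in PD. On the FPKM + 1 scale this was a log2 fold change of 0.93 ± 0.06 (SE; limma, adjusted p = 1.6e-05). PDK2 rose by 0.29 on the same scale (limma, adjusted p = 0.021), a call that was lost with upper quartile scaling, without a filter on FPKM and without PD replicate 2 or 3. PDK4, the kinase gene with the highest FPKM of the 3, had 52.3, 53.9 and 55.9 FPKM in DMSO and 56.8, 57.6 and 52.1 FPKM in PD. The groups overlapped, and the 95% confidence interval of its log2 fold change was -0.07 to 0.15. PDK4 made up 91.7% to 92.2% of the summed FPKM of PDK2, PDK3 and PDK4 in the DMSO libraries and 86.3% to 87.5% in the PD libraries. Of the phosphatases, PDP1 went from 2.74, 2.57 and 2.34 FPKM to 3.74, 4.10 and 3.67 FPKM, a log2 fold change of 0.45, and PDP2 rose by 0.27 (limma, adjusted p = 0.0011 and 0.0046).

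PC, which feeds oxaloacetate into the cycle, and PCK2, which draws it off, both rose. PC, pyruvate carboxylase, had 20.4, 20.6 and 22.9 FPKM in DMSO and 35.0, 37.7 and 37.2 FPKM in PD, a log2 fold change of 0.75 ± 0.05 (SE; limma, adjusted p = 2.8e-05). PCK2, the mitochondrial phosphoenolpyruvate carboxykinase, had 28.2, 26.2 and 27.9 FPKM in DMSO and 43.0, 46.3 and 41.5 FPKM in PD, a log2 fold change of 0.65 (limma, adjusted p = 3.9e-05). In both genes the groups were well apart.

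**Figure D2:**
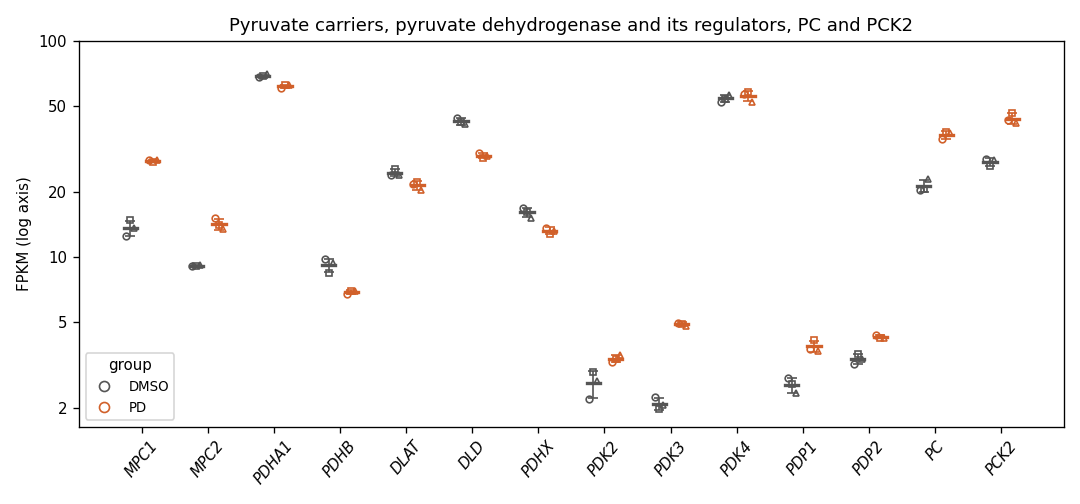
FPKM of the pyruvate carriers, the pyruvate dehydrogenase complex with its kinases and phosphatases, PC and PCK2 (y axis, log scale) in each DMSO and PD library; symbols are the 3 libraries of a group, horizontal lines the means and vertical bars 1 SD. MPC1, MPC2, PDK3, PC and PCK2 are higher and the 5 subunits of the complex lower in PD, while the PDK4 groups overlap.

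Among the dehydrogenases of isocitrate and malate, 3 of the 4 NADP-linked genes rose and 1 fell. Of the 6 NAD-linked genes, 3 rose, 1 fell and 2 did not pass the test. The shares of all tested genes were 31.9% higher and 26.2% lower, and 67.6% were called among genes at the members' levels. With so few genes these counts do not set the 2 classes apart. The largest change of all members was that of IDH2, the mitochondrial NADP-linked isocitrate dehydrogenase (chr15:90083045-90102477, GENCODE release 44, hg38). IDH2 had 7.90, 6.70 and 7.08 FPKM in DMSO and 27.7, 29.5 and 29.8 FPKM in PD. Behind these values stood between 316 and 384 fragments per DMSO library and between 1366 and 1454 per PD library, and the groups were far apart. The FPKM mean was 4.01 times as high in PD, for a log2 fold change of 1.87 ± 0.06 (SE; limma, adjusted p = 2.6e-06). Only 5 of the 14400 tested genes had a higher log2 fold change on this scale. Among the 37 members IDH2 ranked 32 by FPKM in DMSO and 16 in PD. IDH1, its cytosolic and peroxisomal relative, rose from 41.7, 41.2 and 40.4 FPKM to 53.3, 54.2 and 55.4 FPKM, a log2 fold change of 0.39 ± 0.03 (SE; limma, adjusted p = 4e-05). IDH1 thus stayed the higher of both genes, but IDH2 made up 14.0% to 15.9% of their summed FPKM in DMSO and 34.2% to 35.2% in PD.

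The NAD-linked isocitrate dehydrogenase, which acts in the cycle itself, is built from 3 kinds of subunit, and these moved in different directions. IDH3A, the catalytic subunit, had 8.28, 8.91 and 9.16 FPKM in DMSO and 10.8, 10.5 and 10.6 FPKM in PD, a log2 fold change of 0.25 (limma, adjusted p = 0.0029). IDH3B fell from 24.2, 27.4 and 27.4 FPKM to 22.4, 21.3 and 21.3 FPKM, a log2 fold change of -0.27 (limma, adjusted p = 0.0042). For IDH3G the values were 11.6, 11.6 and 11.7 FPKM against 11.4, 11.6 and 12.6 FPKM, and the 95% confidence interval of the log2 fold change was -0.08 to 0.14. The level of IDH2 was 0.751 to 0.954 times that of IDH3A in the DMSO libraries and 2.56 to 2.81 times in the PD libraries.

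The malic enzymes turn malate into pyruvate, and their NADP-linked members went opposite ways. ME1, in the cytosol, rose from 18.8, 18.3 and 17.6 FPKM to 24.7, 23.4 and 25.0 FPKM (log2 fold change 0.40, limma, adjusted p = 0.00018). ME3, in mitochondria, fell from 15.1, 14.4 and 16.0 FPKM to 12.8, 12.7 and 12.5 FPKM (log2 fold change -0.24, limma, adjusted p = 0.0032). In both genes the libraries of the groups did not overlap. ME2, the NAD-linked mitochondrial form, had 5.27, 4.84 and 4.63 FPKM in DMSO and 6.45, 6.12 and 5.26 FPKM in PD, so that the groups overlapped. Its log2 fold change of 0.23 (limma, adjusted p = 0.039) lost its call with upper quartile scaling, without a filter and when any of DMSO replicates 2 and 3 and PD replicates 1 and 2 was left out.

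Malate dehydrogenase and aspartate transaminase each have a cytosolic and a mitochondrial form that together make up the malate-aspartate shuttle, and in both pairs the mitochondrial form rose. MDH2 had 79.4, 76.8 and 78.4 FPKM in DMSO and 97.5, 99.4 and 98.2 FPKM in PD (log2 fold change 0.33, limma, adjusted p = 5.4e-05). GOT2 went from 36.4, 36.3 and 36.8 FPKM to 44.2, 44.3 and 42.7 FPKM (log2 fold change 0.25, limma, adjusted p = 0.00032). The cytosolic forms gave overlapping groups, with 31.9, 29.2 and 30.3 FPKM in DMSO and 31.3, 29.3 and 29.8 FPKM in PD for MDH1. GOT1 had 53.3 to 57.9 FPKM in DMSO and 52.5 to 57.5 FPKM in PD. The 95% confidence intervals of their log2 fold changes were -0.12 to 0.09 for MDH1 and -0.12 to 0.10 for GOT1. The grouping by compartment was made after the values had been seen, and no test of it was run.

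**Figure D3:**
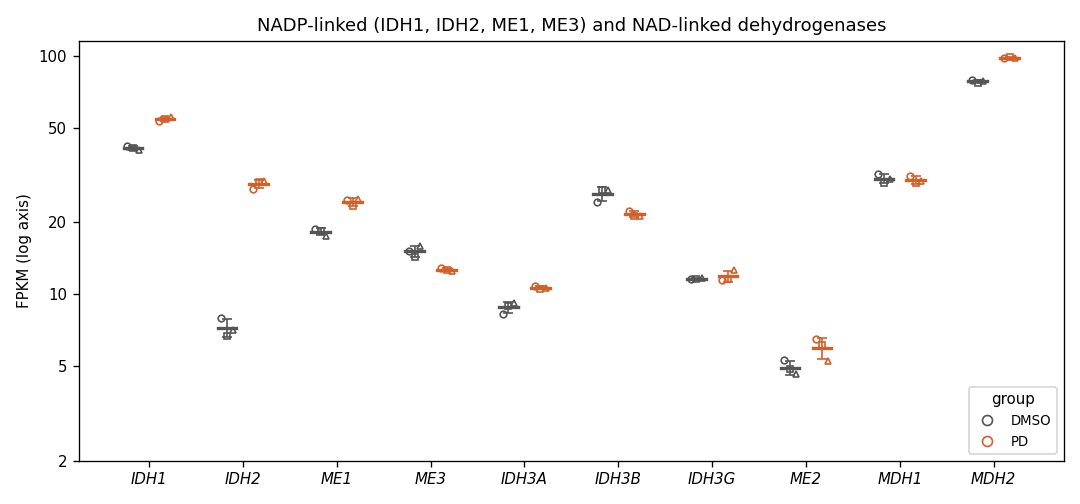
FPKM of the NADP-linked genes IDH1, IDH2, ME1 and ME3 and of the NAD-linked genes IDH3A, IDH3B, IDH3G, ME2, MDH1 and MDH2 (y axis, log scale) in each DMSO and PD library; symbols are libraries, horizontal lines means and vertical bars 1 SD. IDH2 moves from 6.70 to 7.90 FPKM in DMSO up to 27.7 to 29.8 FPKM in PD, and the NAD-linked genes change by less.

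To compare the NADP-linked with the NAD-linked dehydrogenases within each library, the log2 ratio of their FPKM + 1 was taken for 9 pairs that share a substrate. The ratio of IDH2 to IDH3A was -0.06, -0.36 and -0.33 in the DMSO libraries and 1.28, 1.41 and 1.40 in the PD libraries, a difference of 1.61 on the log2 scale. The difference was 2.14 for IDH2 over IDH3B and 1.84 for IDH2 over IDH3G. IDH1 gave differences of 0.66 over IDH3B and 0.36 over IDH3G with no overlap between groups, but 0.14 over IDH3A with overlapping groups. For ME1 the difference was 0.41 over MDH1 and 0.17 over ME2, while ME3 over ME2 moved the other way, by -0.47. The ratio was thus higher in PD in 8 of the 9 pairs, of which 6 reuse IDH1 or IDH2, and the 3 pairs with IDH2 had the largest differences. Of the 3 other pairs that these malic enzymes and malate dehydrogenases can form, added after the values had been seen, ME1 over MDH2 differed by 0.072 with overlapping groups. For ME3 the difference was -0.22 over MDH1 and -0.57 over MDH2 with no overlap, so that the ratio was higher in PD in 9 of all 12 pairs and lower in the 3 with ME3. In exact two-sided permutation tests over the 6 libraries, 8 of the first 9 pairs had p = 0.10, which is the smallest value that 3 against 3 libraries can give, and IDH1 over IDH3A had p = 0.20. Adjusted over the 9 pairs these were 0.11 and 0.20, and this test cannot reach 0.05 with so few libraries. Among the 3 added pairs the exact permutation p was 0.30 for ME1 over MDH2 and 0.10 for both pairs with ME3. Added up, the 4 NADP-linked genes had 80.6 to 83.5 FPKM in DMSO and 119 to 123 FPKM in PD. The 6 NAD-linked genes had 159 to 162 and 178 to 180 FPKM. Single genes weigh heavily in both sums. The mean of IDH2 went from 7.23 to 29.0 FPKM and that of MDH2 from 78.2 to 98.4 FPKM, while ME3 and IDH3B fell. The sums therefore do not describe a shift shared by the genes of a class.

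**Figure D4:**
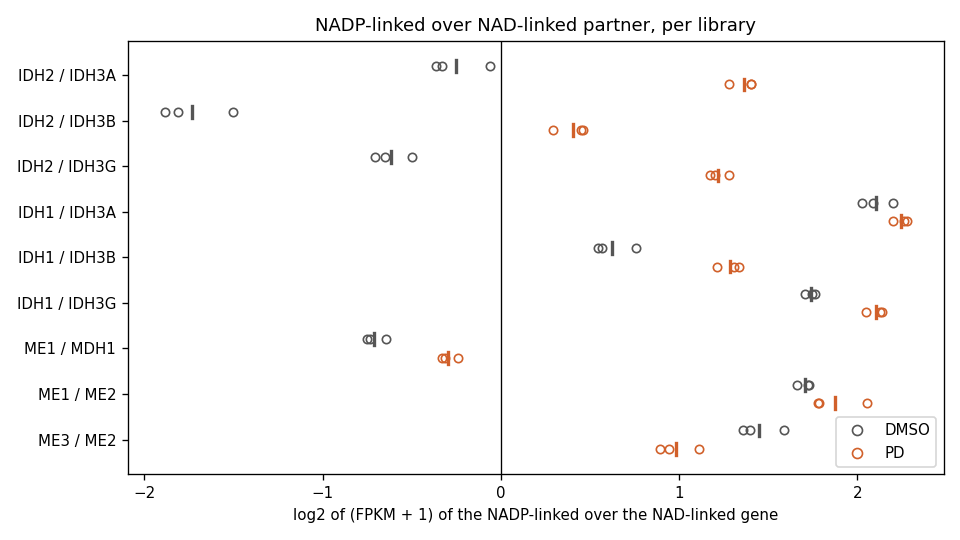
Log2 ratio of FPKM + 1 of an NADP-linked gene over its NAD-linked partner (x axis) for 9 pairs, with 1 circle per library and vertical lines at group means. The 3 pairs with IDH2 are 1.61 to 2.14 higher in PD, and ME3 over ME2 is 0.47 lower.

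The remaining steps of the cycle changed little or in mixed directions. CS, citrate synthase, had 31.4 to 31.8 FPKM in DMSO and 29.2 to 30.8 FPKM in PD, with a log2 fold change of -0.07 that was not called (limma, adjusted p = 0.12), although it was called lower at -0.15 with upper quartile scaling (limma, adjusted p = 0.011). In the 2-oxoglutarate dehydrogenase complex, OGDH, the decarboxylating subunit, fell from 58.8 ± 1.27 to 51.6 ± 1.74 FPKM (SD, n = 3 each). DLST, its succinyltransferase core, rose from 25.0 ± 1.50 to 28.7 ± 1.42 FPKM, a call that was lost with upper quartile scaling and without any 1 of DMSO replicates 1 and 2 and PD replicates 1 and 2.

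Succinyl-CoA synthetase pairs 1 alpha subunit with either of 2 beta subunits, which make ATP or GTP. SUCLA2, the ATP-forming beta subunit, had 14.1, 15.0 and 15.2 FPKM in DMSO and 10.9, 10.7 and 9.41 FPKM in PD, and its log2 fold change of -0.48 ± 0.06 (SE; limma, adjusted p = 0.00046) was close to that of DLD. SUCLG1, the alpha subunit, rose by 0.14 (limma, adjusted p = 0.012), which was not called with upper quartile scaling. SUCLG2, the GTP-forming beta subunit, had 16.4, 15.5 and 12.7 FPKM in DMSO and 13.7, 13.3 and 13.2 FPKM in PD. DMSO replicate 3 lay below all PD libraries, and without it the log2 fold change was -0.24 and was called (limma, adjusted p = 0.0047), against -0.13 with all libraries (limma, adjusted p = 0.22).

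Succinate dehydrogenase, which is also complex II of the respiratory chain, had 1 of its 4 subunits called. SDHB, the iron-sulfur subunit, rose from 37.3, 34.4 and 36.8 FPKM to 43.4, 43.4 and 45.0 FPKM (log2 fold change 0.27, limma, adjusted p = 0.00085). SDHA, the flavoprotein, had 75.7 to 81.3 FPKM in DMSO and 76.4 to 79.1 FPKM in PD. The membrane anchors SDHC and SDHD had log2 fold changes of 0.08 and 0.13 (limma, adjusted p = 0.090 and 0.13). SDHA has near-identical copies elsewhere in the genome, so its value is less certain. FH, fumarase, was the member with the highest FPKM in both groups and fell from 117 ± 1.28 to 108 ± 1.09 FPKM (SD, n = 3 each; log2 fold change -0.11, limma, adjusted p = 0.0086).

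Exons of 18 of the 37 members overlap those of another gene, and the library protocol in the labels describes no step that marks strand. A fragment from such a stretch cannot be given to either gene by its strand, so the values of these members are less certain. Among the genes described above this applies, for example, to IDH1 with its antisense gene IDH1-AS1, to DLD with LAMB1, PC with LRFN4, IDH3A with CIB2 and ACSBG1, IDH3G with SSR4, MPC2 with DCAF6 and MDH1 with WDPCP, and to the 4 other subunits of the pyruvate dehydrogenase complex. Of the further genes given next, it applies to PDK1 with PDK1-AS1, to CISD3 with PCGF2, and to ACLY and MTHFD2L with genes that have no symbol. IDH2, MPC1, PDK3, PDK4, PCK2, ME1, ME3, MDH2 and SDHB have no such overlap.

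Other genes of the pathway were counted from a list of 23 further enzymes, assembly factors and carriers, of which 21 were tested. Of these, 7 rose, 1 fell and 13 did not pass the test, a smaller share called than the 58.1% of all tested genes. This count depended on the method, with 11 of 21 called with the replicate block and 12 of 22 with limma voom on fragments. The median log2 fold change of the list was 0.13. The genes that rose most belong to the export of citrate for lipid synthesis, with ACLY, ATP citrate lyase, going from 58.8 ± 2.72 to 84.7 ± 1.41 FPKM and SLC25A1, the mitochondrial citrate carrier, from 65.3 ± 6.44 to 92.4 ± 3.50 FPKM (SD, n = 3 each). CISD3, a mitochondrial iron-sulfur protein, rose by 0.39 on the log2 scale. PDK1, the kinase gene outside the 37, was the one that fell, from 1.64 ± 0.218 to 1.03 ± 0.0700 FPKM (log2 fold change -0.38, limma, adjusted p = 0.0081), opposite to PDK2 and PDK3.

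A list of 17 other genes was drawn up around NADPH production and NADP supply. It also holds neighbouring enzymes of the pentose phosphate and folate pathways that do not make NADPH themselves, MTHFD1L among them. The counts of the list therefore do not describe NADPH-producing enzymes alone. Of the 17 genes, 15 were tested, and 8 rose, 4 fell and 3 did not pass the test (median log2 fold change 0.10 for the list). Over all tested genes, 31.9% rose and 26.2% fell. PGD, the 6-phosphogluconate dehydrogenase of the pentose phosphate pathway, rose most. It had 78.6, 80.2 and 82.7 FPKM in DMSO and 134, 147 and 140 FPKM in PD, a log2 fold change of 0.80 (limma, adjusted p = 7.4e-06). The groups lay far apart, at a smaller log2 fold change than that of IDH2. MTHFD1L and MTHFD2L, both of mitochondrial folate metabolism, fell with log2 fold changes of -0.64 and -0.37. Of these, MTHFD2L had 1.15 ± 0.212 FPKM in DMSO and 0.652 ± 0.0284 FPKM in PD (SD, n = 3 each) and lost its call without DMSO replicate 1 or 2. Its log2 fold change was -0.72 with a pseudocount of 0.1 and -0.80 with limma voom on fragments, beyond the -0.67 of MTHFD1L in both.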

How the data were processed

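Per the labels, the authors made poly(A) libraries by a protocol that describes no step marking strand. Per the paper's methods, they used HISAT2 for alignment (genome hg38) and HTSeq for counting (version 0.6.0 in the submitters' processing notes) and deposited FPKM, 1 column per library. The annotation they used is not given in the sources used here. Groups and replicate numbers came from the sample titles; the dose is that of the labels, and the paper's methods state a slightly lower one. FPKM were log2-transformed after adding 1 and fitted with limma 3.58.1 in R 4.3.3 (intensity-dependent prior variance, no covariates, Benjamini-Hochberg adjustment), for genes whose mean reached 0.5 FPKM. No library of a group duplicated another, with chi-square statistics of 2.30 to 3.78 per gene within groups against 52.3 to 61.0 between them.

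FPKM are whole multiples of what 1 fragment is worth, and whole fragments (within 0.001) were worked back for all 28563 genes, 12879 of them with the GENCODE 44 exon length; they held 99.8% of each total. In simulated data the main test recovered 99 of 100 genes changed 2.5-fold and 52 of 100 changed 1.3-fold, with 13 false calls among 14440 tested. The simulation changed far fewer genes than were called in the data, and only genes of higher FPKM. It also gave all genes the same spread beyond counting, so these shares need not hold for the data. Small changes can be missed in the data too, at a rate that the simulation does not give. Permutation tests used scipy 1.17.1. The members, gene lists and pairs were chosen with earlier results of these data known. All members could be named; of the other lists, up to 4 genes with the largest called changes, some of which are not reported here. Alternatives were a pseudocount of 0.1, no filter, 2 other scalings, a replicate block, each library left out, 3 further pairs (added after seeing the data), and limma voom on genes with at least 10 fragments in 3 libraries.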

Additional observations from a re-analysis of the deposited data

How the results depend on the processing

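IDH2, MPC1, MPC2, PDK3, PC, PCK2 and the 5 subunits of the pyruvate dehydrogenase complex kept their direction and call under all alternatives run, and the number of members called was 25 to 29. With a pseudocount of 0.1 and with limma voom on fragments, 3 members changed at least 2-fold, and 1248 and 1734 of all genes did, against 1 member and 520 genes. Leaving out each library in turn gave 1 to 2 such members (MPC1 was added without DMSO replicate 2), 25 to 28 members called, 511 to 561 genes changed 2-fold and 1 to 2 falls among the further pathway genes. Upper quartile scaling took the members' median to 0.048, and it, the replicate block and voom each gave 2 falls among the further pathway genes, of which 1 changed at least 2-fold with voom. Upper quartile scaling also ended the calls of PDK2, ME2, DLST and SUCLG1, added CS, and turned PDK4 to -0.045 and IDH3G to -0.048. Without 1 library, the sign turned for 4 genes that were not called, whose log2 fold changes ranged from -0.011 to 0.055 for IDH3G, from -0.046 to 0.017 for MDH1, from -0.046 to 0.0057 for SDHA and from -0.041 to 0.025 for GOT1. The cause of these shifts was not tested.

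Same-numbered libraries had correlations of -0.03, -0.01 and 0.09 over 14400 genes, and libraries of different number had -0.084 to 0.085. No pairing by number was seen, though 3 libraries per group cannot exclude one. With the replicate block 29 members were called, SDHD being added at an unaltered log2 fold change of 0.13. The ratios of the first 9 pairs, for which no block was run, kept their direction under each alternative tried. The 2 other scalings divide both genes of a pair by the same factor, so they could hardly move a ratio. The added pairs were not run under these alternatives. The lowest member had 89 fragments in a library, which limits the precision of the members with low FPKM.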
